A study of Mus musculus with 4 samples.

Results

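Rab GTPases are small membrane-bound proteins that give each compartment of the secretory and endocytic pathways its identity. A guanine nucleotide exchange factor (GEF) loads a Rab with GTP on its target membrane, the loaded form recruits effectors such as tethers, motors and sorting adaptors, a GTPase-activating protein (GAP) ends the signal, and a GDP dissociation inhibitor (GDI) lifts the Rab off again. In blood cells they are best known for the traffic of endosomes, phagosomes and lysosomes and for the release of granules. The members were the genes whose mouse symbol is Rab, a number and at most 1 further letter, found by matching the RefSeq accession of each array probe to its symbol. The rule took 57 of the 20280 named genes on the array, covered by 80 probes, out of 59 such symbols in the RefSeq annotation of GRCm38.p6. Of the 57 members, 51 passed the filter on dim probes and were tested, and 45 of these were above background on all 4 arrays. Rab3b, Rab9b, Rab25, Rab30, Rab39 and Rab39b did not pass it and have no test.

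The RNA came from lymphoid-primed multipotent progenitors (LMPP), early blood-forming cells of the mouse bone marrow, taken from mice with a green fluorescent protein (GFP) reporter knocked in for the transcription factor IRF8. Magnetic enrichment and flow sorting kept cells positive for Sca-1, CD117, CD34 and CD135 and negative for lineage markers, IL-7R and CD150. The IRF8-GFP(+) and IRF8-GFP(-) groups are fractions of these cells with and without the reporter's signal. Each group had 2 one-colour Agilent arrays, labelled exp 1 and exp 2, so the design compares transcript levels between both fractions. The labels give neither the age of the mice nor their number, nor whether exp 1 and exp 2 used different mice. The p-values therefore cover array-to-array spread alone, and part or all of it may be technical.

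Levels are log2 signals relative to the array's 75th percentile, so 0 marks that percentile, and differences are IRF8-GFP positive minus negative LMPP on the log2 scale. A difference was called when its limma p-value, adjusted by the Benjamini-Hochberg method over all 22362 genes and unnamed transcripts tested, was under 0.05. Positive arrays had 29631 and 30266 of 59305 spots well above background, against 33506 and 33681 on negative arrays, and no spot was saturated. Irf8 followed the sort, at 5.13 and 5.22 in positive LMPP against 1.64 and 1.60 in negative LMPP. The genes of the gate, Flt3, Cd34, Kit and Ly6a, were above background on all 4 arrays. Their levels were not equal: Flt3 (0.25) and Cd34 (0.26) were called higher in positive LMPP, and Kit (-0.39) and Ly6a (-0.96) lower. Among genes of other cell types, the monocyte and macrophage markers differed most. All 5 of those tested were higher, with summed linear signals of 61.8 and 64.2 times the 75th percentile in positive LMPP against 9.46 and 9.41 in negative LMPP. Of the megakaryocyte markers 4 of 5 were lower, with sums of 2.27 and 2.34 against 6.21 and 6.28, and all 5 were above background on every array. Of 5 erythroid markers tested 3 were called lower (Hba-a1, Hbb-bt and Alas2), with sums of 8.69 and 9.21 against 13.4 and 14.9. Alas2 was not above background on either positive array, and its negative level was too dim for a bound. Of 3 neutrophil markers tested S100a9 was lower (-1.11, adjusted p = 0.00186), with sums of 0.493 and 0.600 against 0.885 and 0.894, while Ltf, Ngp, Retnlg and Mmp8 were below background throughout.

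The Rab family as a whole did not move one way. In IRF8-GFP positive LMPP 16 of the 51 tested members were higher and 14 lower, against a background of 38.5% higher and 21.4% lower over all genes, or 59.9% called in either direction. The median difference of the tested members was 0.11, and that of all genes 0.16. Fitted differences of at least 2-fold were few: Rab7b was higher, and Rab27b, Rab6b, Rab19 and Rab20 were lower, where 2.33% of all genes were higher and 5.61% lower by that measure. Rab40b also fitted past 2-fold, but its measured bound, given with its values, is smaller. In 42 members the arrays of both groups did not overlap, which held for 82.2% of all genes. Because these are sorted populations measured in bulk, fewer cells of a type and less RNA per cell cannot be told apart.

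The balance of higher and lower calls moved with the scaling, in the Rab family and over all genes. Higher and lower members numbered 7 and 16 with quantile normalization and likewise in the authors' matrix, 6 and 17 after cyclic loess and 4 and 23 with spike-in scaling. Higher members were 53.3% of the Rab calls with the 75th percentile, 30.4% with quantile normalization and 14.8% with spike-in scaling, where the share over all genes was 64.3%, 52.6% and 28.9%. Only Rab7b, Rab27a and Rab3d among the 16 higher calls passed in the same direction under each of the 6 other scalings and background corrections, while Rab11a, Rab11b, Rab14, Rab18 and Rab35 turned sign under 1 or more of them. Of the 14 lower calls 10 passed under all 6, and the exceptions were Rab15, Rab20, Rab40b and Rab42. Without the first negative array the higher members numbered 9.

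**Figure D1:**
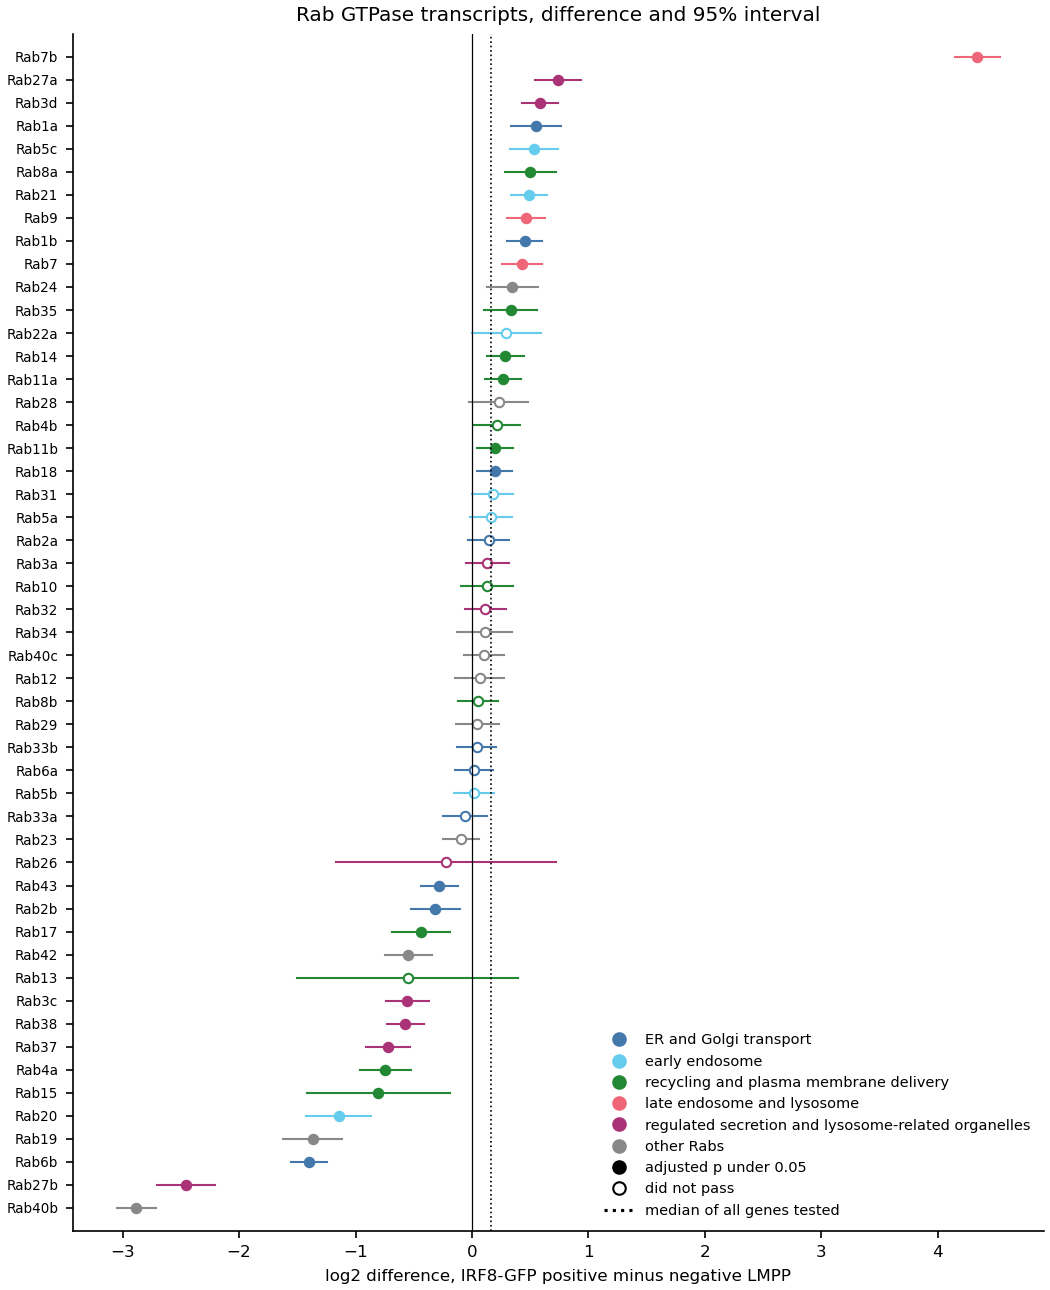
Log2 difference of IRF8-GFP positive minus negative LMPP for each of the 51 tested Rab members (points, coloured by role) with its 95% interval from limma (lines). Filled points passed an adjusted p of 0.05, and the dotted line is the median of all genes, 0.16. Rab7b stands alone at 4.34, and the lower end is led by Rab27b and by Rab40b, whose fitted value rests on positive arrays below background.

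In the late endosome and lysosome group all 3 tested members were called higher, beside 38.5% of all genes. They include Rab7b, so that count was partly known in advance. Rab7b, which acts between late endosomes, lysosomes and the trans-Golgi network and dampens Toll-like receptor signalling in macrophages, had a log2 signal of 0.01 and 0.05 in positive LMPP against -4.37 and -4.25 in negative LMPP. Its 2 positive arrays lay close together and far above the negative ones, of which 1 was above background. Rab7b passed the filter only through the positive arrays. Its fitted difference was 4.34 (SE 0.07, adjusted p = 0.000802), or 20.2-fold, with 1 of the 2 negative values below background. Rab7b was named for study with that result already known. Over the alternatives tried the difference ran from 2.52 to 4.40. The lowest value, or 5.72-fold, came from normexp background correction. The gene lies on chromosome 1 beside Ctse, the cathepsin E gene, in the GRCm38.p6 order of protein-coding genes. Ctse was lower, at -0.60 and -0.39 in positive LMPP against 0.22 and 0.36 in negative LMPP (difference -0.79, adjusted p = 0.00593). The next neighbours Avpr1b, Slc26a9 and Pm20d1 were below background throughout.

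Rab7, the general Rab of late endosomes and of their fusion with lysosomes, moved far less. It had 1.46 and 1.52 in positive LMPP against 1.03 and 1.10 in negative LMPP. The groups did not overlap, and the difference was 0.43 (SE 0.06, adjusted p = 0.00714), or 1.35-fold. Without the first negative array the adjusted p of Rab7 was 0.0545, and with spike-in scaling its difference was 0.12 and did not pass. Rab9, which returns mannose 6-phosphate receptors from late endosomes to the Golgi, was 0.46 higher (adjusted p = 0.00524), and its 3 probes gave 0.46, 0.49 and 0.47. The difference of Rab9 was 0.16 with spike-in scaling and did not pass there or after cyclic loess. Beside the rise of Rab7b stand the monocyte and macrophage markers given above and the markers of conventional dendritic cells. Of the latter 3 of 4 tested were higher, while Xcr1 and Cd209a were below background throughout. Clec9a, among those higher, passed the filter only through the positive arrays and was at least 8.04-fold higher. The part of such cells in the result was not tested.

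**Figure D2:**
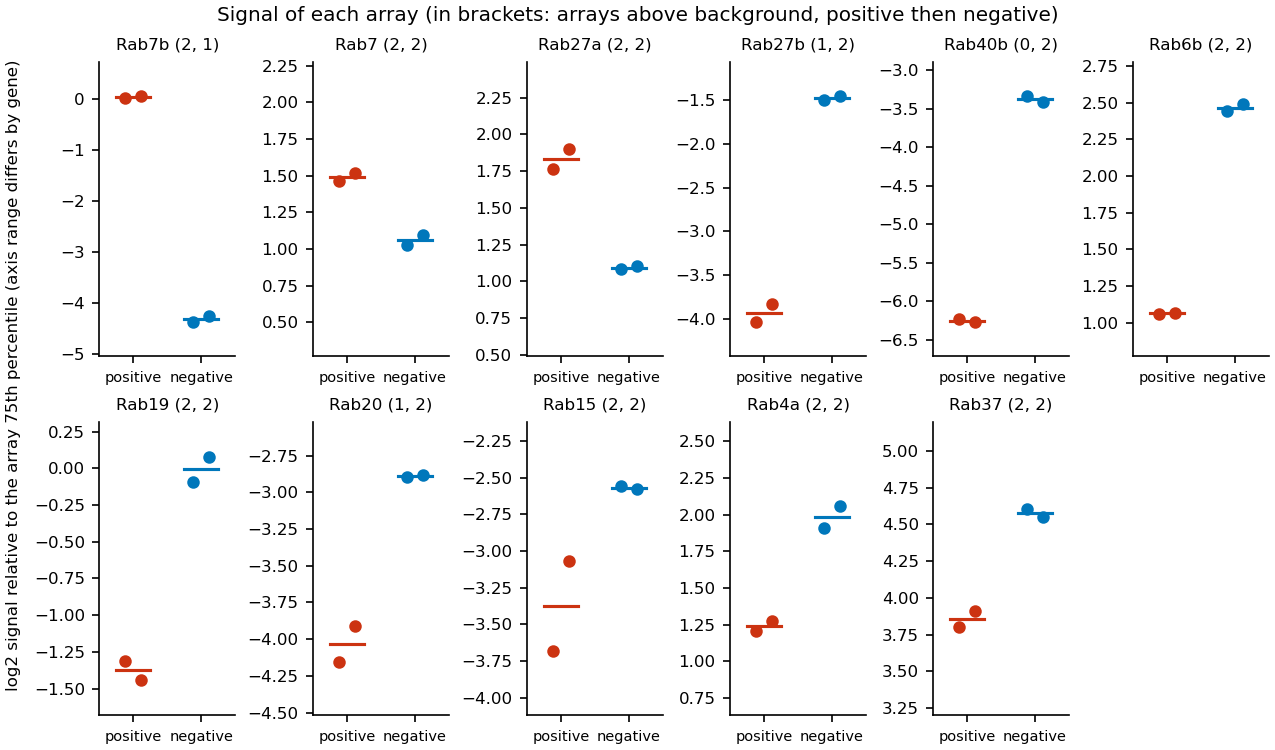
Log2 signal relative to the array's 75th percentile in each positive (red) and negative (blue) array for 11 Rab members, with group means as bars and the number of arrays above background in brackets. The axis range differs by gene. Arrays of both groups are apart for every gene shown, and the 2 positive arrays of Rab15, at -3.68 and -3.07, spread most.

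Rabs of regulated secretion and lysosome-related organelles moved in both directions, with 2 of 9 tested members higher, 4 lower and a median of -0.22. The shares over all genes were 38.5% higher and 21.4% lower. Rab27a, which docks secretory granules, melanosomes and lytic granules at the plasma membrane, had 1.76 and 1.90 in positive LMPP against 1.08 and 1.10 in negative LMPP. All positive values were above the negative ones, with a difference of 0.74 (SE 0.07, adjusted p = 0.00314), or 1.67-fold. Its close relative Rab27b, known from platelets and mast cells, went the other way. It had -4.03 and -3.83 in positive LMPP, where 1 array was above background, against -1.498 and -1.457 in negative LMPP. The difference of Rab27b was -2.45 (SE 0.09, adjusted p = 0.00121), or 5.48-fold lower. A second Rab27b probe, not above background on either positive array, gave -1.69, and normexp background correction reduced the difference to -1.11, which still passed.

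Rab37, a granule Rab of mast cells and other blood cells, was lower. It had 3.80 and 3.91 in positive LMPP against 4.603 and 4.552 in negative LMPP, with no overlap. Its difference was -0.72 (SE 0.07, adjusted p = 0.00298), and a second probe gave -0.78. Rab38, which supplies cargo to melanosomes and platelet dense granules, was lower by a difference of -0.57 (SE 0.06, adjusted p = 0.00336). A second Rab38 probe was below background on all 4 arrays. Rab32, which shares that task with Rab38, had a difference of 0.12 (95% interval -0.06 to 0.29) and did not pass. Rab3c, a vesicle Rab described mostly in neurons, was at 5.05 and 5.10 in positive LMPP against 5.68 and 5.58 in negative LMPP by its brightest probe. The difference of Rab3c was -0.55 (adjusted p = 0.00464). Another Rab3c probe gave -0.66, but a further one was below background on all 4 arrays. Rab3d, a granule Rab of exocrine and mast cells, was higher, with 1.64 on both positive arrays against 1.08 and 1.03 on the negative ones, a difference of 0.58 (adjusted p = 0.00302). The Rab26 arrays scattered from -4.03 to -3.12 in positive LMPP against -3.50 and -3.19 in negative LMPP, and its interval of -1.17 to 0.72 allows a change either way. The megakaryocyte and erythroid markers that were lower stand beside Rab27b and Rab38, and their part in these differences was not tested. Of 3 mast cell and basophil markers tested, Mcpt8 was higher (0.84, adjusted p = 0.0129), Cpa3 (-0.04) and Fcer1a (-0.06) did not pass, and Ms4a2 was below background throughout.

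The gap between members of 1 family ranged from small to large. Differences between relatives carry no array-wide scaling constant, since it cancels. They were not put to a test of their own. Of 13 families with 2 or more tested members (those sharing a number, and Rab32 with Rab38), Rab40 was set aside, since Rab40b was below background on both positive arrays and its gap is not measured. In the other 12 the highest and lowest differences lay at least 1 log2 unit apart in 4 and at least 0.5 apart in 7. Gaps between unrelated genes were not computed, so these counts cannot be called large or small. The quartiles of the difference over all genes were -0.24 and 0.43. The gap was 3.91 between Rab7b and Rab7, 3.19 between Rab27a and Rab27b, 1.42 between Rab6a and Rab6b and 1.14 between Rab3d and Rab3c. The first and second of these involve 1 array below background each, of Rab7b in negative and of Rab27b in positive LMPP. The first also rests on Rab7b, whose result was known beforehand. Opposite calls occurred in 2 families, Rab27 and Rab3. By contrast the gap was 0.10 between Rab1a and Rab1b, 0.10 between Rab33b and Rab33a and 0.06 between Rab11a and Rab11b. The Rab33 gap holds for the brighter Rab33b probe only, since the other Rab33b probe gave a difference of -0.65. Whether probes of close relatives also bind each other's transcript was not tested, because probe sequences were not used here.

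**Figure D3:**
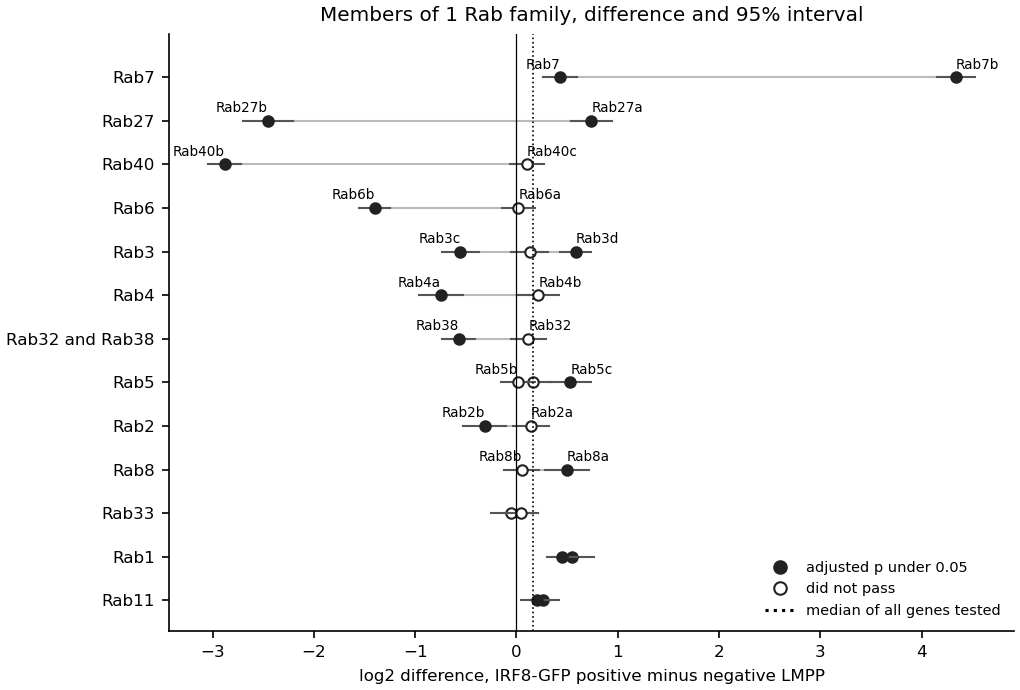
Log2 difference of IRF8-GFP positive minus negative LMPP for the tested members of 13 Rab families, with 95% intervals. Filled points passed an adjusted p of 0.05 and the dotted line is the median of all genes. The Rab7 and Rab27 families spread over 3.91 and 3.19 log2 units, and the Rab40b point is a fitted value with positive arrays below background. The Rab1, Rab11 and Rab33 members lie within 0.10, each gene being shown by its brightest kept probe.

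Rabs of the endoplasmic reticulum (ER) and Golgi split evenly, with 3 of 10 tested members higher, 3 lower and a median of 0.03. Over all genes 38.5% were higher and 21.4% lower. Rab6b, a Golgi Rab of retrograde transport, had 1.06 and 1.07 in positive LMPP against 2.44 and 2.49 in negative LMPP. Both positive arrays were well below both negative ones, with a difference of -1.40 (SE 0.06, adjusted p = 0.0013), or 2.64-fold lower, and the value stayed between -1.37 and -1.71 over the alternatives. Rab6a, the widely expressed relative, had a difference of 0.02 (95% interval -0.15 to 0.18) that turned to -0.25 with quantile normalization. Rab1a and Rab1b, which drive transport between ER and Golgi, were higher by 0.55 (adjusted p = 0.00674) and 0.45 (adjusted p = 0.00477). Neither passed with quantile normalization, where the differences were 0.24 and 0.15. Rab2b and Rab43, both Golgi Rabs, were lower by differences of -0.32 (adjusted p = 0.0269) and -0.28 (adjusted p = 0.0186). Leaving out either negative array or the second positive array ended both calls, with adjusted p up to 0.125 for Rab2b and 0.102 for Rab43. Their differences were larger with spike-in scaling, at -0.62 for Rab2b and -0.59 for Rab43. Rab18, of the ER and lipid droplets, passed at 0.19 but turned to -0.11 with spike-in scaling and to -0.03 with quantile normalization. Leaving out any 1 array ended the call of Rab18, with adjusted p up to 0.182. Rab33b did not pass with its brighter probe (0.04), while its other probe gave -0.65.

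Of 7 tested early endosome Rabs, Rab5c and Rab21 were higher and Rab20 lower, with a median of 0.18. For comparison, 38.5% of all genes were higher and 21.4% lower. Rab5c, one of the Rab5 proteins that drive early endosome fusion, had 5.22 and 5.17 in positive LMPP against 4.59 and 4.73 in negative LMPP (difference 0.53, adjusted p = 0.00691), but only 0.13 with the deposited matrix values, where it did not pass. Its relatives Rab5a (0.16, 95% interval -0.02 to 0.34) and Rab5b (0.02, -0.15 to 0.19) did not pass. Rab21, which carries integrins inward, was higher by 0.49 (adjusted p = 0.00412) and lost its call only with spike-in scaling (0.19). Rab20, a Rab of phagosome maturation, had -4.16 and -3.91 in positive LMPP, with 1 array above background, against -2.90 and -2.88 in negative LMPP. It was lower by a difference of -1.15 (SE 0.10, adjusted p = 0.0027), a value that fell to -0.18 and did not pass under normexp background correction.

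Recycling and plasma membrane Rabs were called in 8 of 12 tested members, near the 59.9% called over all genes. Of these 5 were higher and 3 lower, beside 38.5% and 21.4% of all genes. The median of the 12 tested members was 0.16. Rab4a, which returns cargo rapidly from early endosomes to the surface, had 1.21 and 1.27 in positive LMPP against 1.91 and 2.06 in negative LMPP. The groups were well apart, with a difference of -0.74 (SE 0.08, adjusted p = 0.00355), and a second probe gave -0.82. Its relative Rab4b, at 0.22 (95% interval 0.02 to 0.41), did not pass. Rab15, a Rab of early and recycling endosomes studied mostly in neurons, had -3.68 and -3.07 in positive LMPP against -2.56 and -2.58 in negative LMPP. Its difference of -0.80 (SE 0.22, adjusted p = 0.0385) was not called without either negative array (adjusted p up to 0.135), with quantile normalization, after cyclic loess or in the deposited matrix values, and fell to -0.21 under normexp background correction. Rab17, known from epithelial transcytosis, was lower by -0.44 (adjusted p = 0.0184), with -0.41 from a second probe, and was not called without either negative array (adjusted p up to 0.0979), whereas spike-in scaling gave -0.75. Rab8a, an exocytic Rab, was higher by 0.50 (adjusted p = 0.00929), and fell to 0.19 without passing under spike-in scaling. The remaining higher calls, Rab35 (0.33), Rab14 (0.29), Rab11a (0.26) and Rab11b (0.20), all turned sign under 1 or more scalings, and their direction is not settled. Rab10 did not pass with its brighter probe (0.13), whereas its other probe gave 0.66.

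In the group of other Rabs 1 of 10 tested members was higher and 3 lower, beside 38.5% and 21.4% of all genes. Rab40b, whose family carries a SOCS box that joins a ubiquitin ligase, had -6.24 and -6.27 in positive LMPP against -3.34 and -3.41 in negative LMPP. Neither positive array was above background, so only a bound is known: it was at least 1.54-fold lower, against a fitted difference of -2.88 (adjusted p = 0.000802). That bound sets the negative mean against the lowest signal well above background on the positive arrays, or the dim signal itself where it is higher. Under normexp background correction the difference was -0.32 and did not pass (adjusted p = 0.0568). Rab19 had -1.31 and -1.44 in positive LMPP against -0.09 and 0.08 in negative LMPP. All 4 arrays were above background, and the difference was -1.37 (SE 0.09, adjusted p = 0.00194), or 2.58-fold lower. Rab42 was lower by -0.55 (adjusted p = 0.0063) and fell to -0.13 without passing under normexp. Rab24, linked to autophagy, was higher by 0.35 (adjusted p = 0.0242). That call was lost without either negative array or the first positive array (adjusted p up to 0.106), and the difference shrank to 0.01 after cyclic loess.

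All tested genes were split into 4 equal groups by mean signal. In the dimmest group 5 of 8 Rab members were lower and 0 higher, where 26.0% of all genes were lower and 17.8% higher. Rab13, Rab20, Rab26, Rab27b and Rab40b in that group passed the filter only through the negative arrays, so its lower count was partly fixed by the filter. In the next group 2 of 7 members were lower and 2 higher, beside 31.8% and 24.5% of all genes. In the following one 3 of 18 members were lower and 6 higher, beside 19.8% and 44.6%. In the brightest group 4 of 18 members were lower and 8 higher, beside 7.85% and 67.1%. From the second to the brightest group the median difference was 0.11, 0.17 and 0.12 for the Rab members and 0.00091, 0.19 and 0.38 for all genes. The 4 bright members that were lower, each judged by its brightest probe, were Rab3c, Rab37, Rab38 and Rab43. Rab3c and Rab38 each also had a probe below background on every array.

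**Figure D4:**
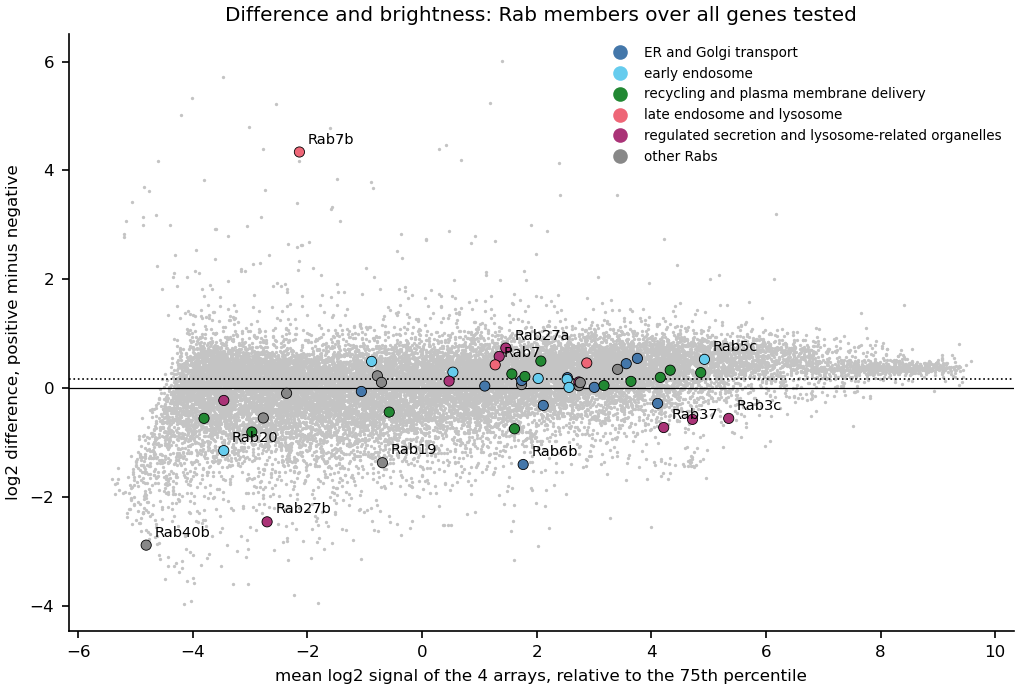
Log2 difference of IRF8-GFP positive minus negative LMPP against the mean log2 signal of the 4 arrays, relative to the 75th percentile, for all 22362 genes and unnamed transcripts (grey) and the 51 Rab members (coloured by role). The dotted line is the median of all genes. Rab3c and Rab37 lie below the band of bright genes, and Rab7b lies above nearly all genes of its brightness.

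The genes that run the Rab cycle were also called in both directions. Of 133 listed genes, 123 were tested, of which 31 were higher and 26 lower, beside 38.5% and 21.4% of all genes, with a median difference of 0.04. The counts were 17 and 49 with quantile normalization and likewise in the authors' matrix, 13 and 50 after cyclic loess and 4 and 65 with spike-in scaling, so lower calls outnumbered higher ones under these 4. Of all genes 24.4% were lower with quantile normalization, 24.5% in the authors' matrix, 25.8% after cyclic loess and 36.2% with spike-in scaling. Lower calls also outnumbered higher ones under normexp background correction, with 25 higher and 26 lower, and with any single array left out.

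Of 8 genes for prenylation and membrane extraction 3 were called higher, beside 38.5% of all genes. Chml, a Rab escort protein that presents new Rabs for prenylation, had 0.91 and 1.06 in positive LMPP against 0.22 and 0.21 in negative LMPP, a difference of 0.77 (adjusted p = 0.00308) that passed under all scalings tried. Gdi2, a GDI gene, had a difference of 0.46 (adjusted p = 0.00514) but turned sign with quantile normalization and likewise in the authors' matrix. Rabggtb, a subunit of the prenylating enzyme, was higher by 0.31 (adjusted p = 0.021) and lost its call without either negative array or the second positive array (adjusted p up to 0.108) and under 5 of 6 scalings.

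Among 34 tested GEF genes 8 were higher and 7 lower, beside 38.5% and 21.4% of all genes. The DENN domain gene Dennd1c, an activator of Rab35, had 2.16 and 2.27 in positive LMPP against 3.48 and 3.59 in negative LMPP, a difference of -1.32 (SE 0.08, adjusted p = 0.00172). Dennd2a (-1.33, adjusted p = 0.00141) and Dennd2d (-0.91, adjusted p = 0.00175) were lower as well, and Dennd2a had -0.67 under normexp. Sbf2 fitted at -1.94 (adjusted p = 0.00324), but neither positive array was above background and its negative level was too dim for a bound, and under normexp its difference was -0.12 and did not pass. The activator of Rab7 is a complex of Mon1 and Ccz1, chosen for mention after its values were seen. Ccz1 was higher, at 4.37 and 4.41 in positive LMPP against 3.64 and 3.68 in negative LMPP (0.73, adjusted p = 0.00226, passing under all scalings). Mon1a (0.13) and Mon1b (-0.16) did not pass.

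Of 34 tested GAP genes 9 were higher and 6 lower, beside 38.5% and 21.4% of all genes. Sgsm1 had -0.12 and 0.05 in positive LMPP against 1.68 and 1.79 in negative LMPP, a difference of -1.77 (SE 0.09, adjusted p = 0.00149). Tbc1d9 was lower by -1.12 (adjusted p = 0.00282, and -0.27 under normexp) and Tbc1d8b by -0.51 (adjusted p = 0.00379). Tbc1d30, at -0.67 (adjusted p = 0.0054), turned to 0.0020 under normexp background correction, so its direction is not settled.

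Effectors and tethers numbered 47 tested genes, 11 higher and 12 lower, beside 38.5% and 21.4% of all genes. Sytl1, which binds Rab27 on secretory vesicles, had 2.53 and 2.54 in positive LMPP against 3.71 and 3.76 in negative LMPP. The groups were clearly apart, with a difference of -1.20 (SE 0.06, adjusted p = 0.00144). Other Rab27 partners, chosen for mention after their values were seen, were also lower: Sytl4 by -0.45 (adjusted p = 0.00713, but 0.0546 without the second negative array) and Unc13d, needed for lytic granule release, by -0.31 (adjusted p = 0.0152, but up to 0.0940 without either negative array). Sytl3 had 0.24 and did not pass, and Sytl2, Sytl5, Mlph, Myrip and Exph5 were not above background on any array. Rilpl1, which binds Rab8 and Rab10 near the centrosome, was lower by -0.85 (adjusted p = 0.0036). Ocrl, an inositol phosphatase recruited by several Rabs, was lower by -0.77 (adjusted p = 0.00346). Rab11fip1, a Rab11 effector, was not above background in positive LMPP and was at least 1.197-fold lower (adjusted p = 0.0136), but turned to 0.12 under normexp.

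**Figure D5:**
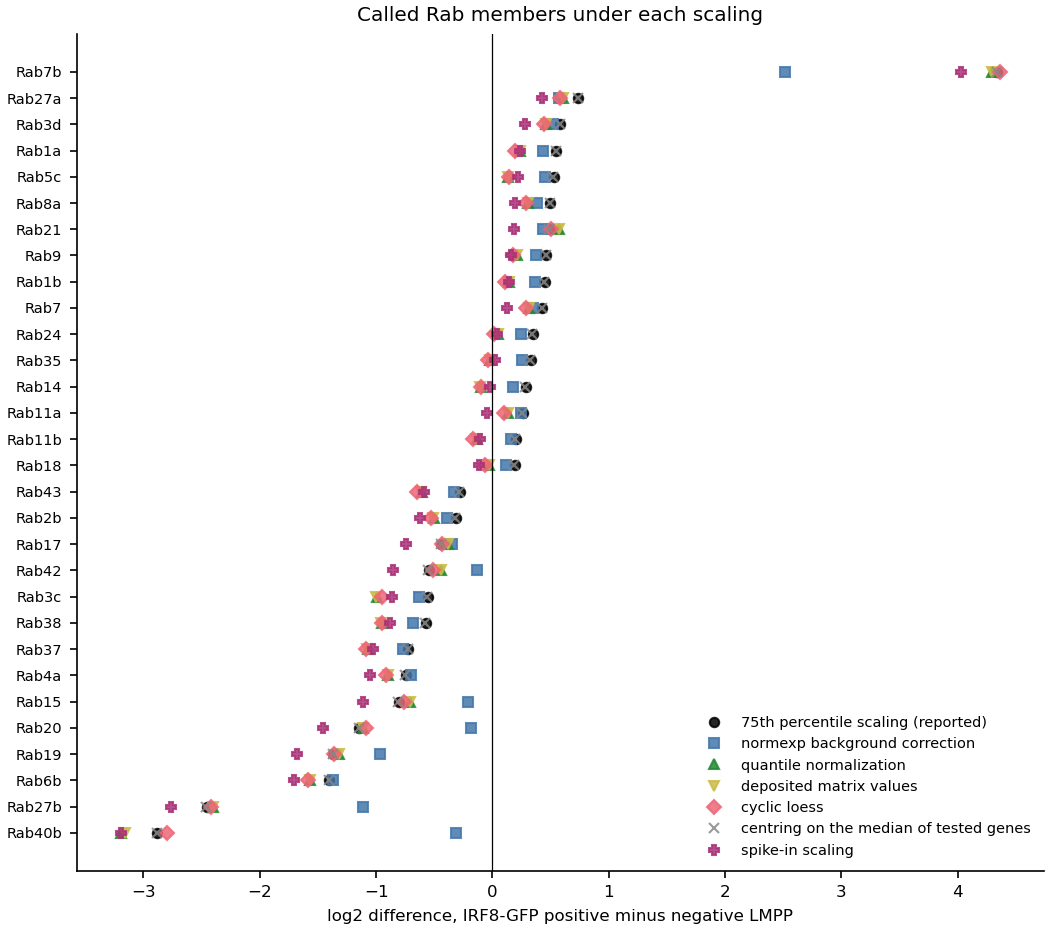
Log2 difference of IRF8-GFP positive minus negative LMPP for the 30 Rab members called with 75th percentile scaling (black) and under 6 other scalings or background corrections (other symbols). Rab7b, Rab27a and Rab3d stay to the right and 10 of the 14 lower members stay called, whereas Rab11b, Rab14 and Rab18 cross 0 under 4 of them.

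The 250 bases before the start sites of the Rab genes were searched on both strands for elements that IRF8 and its partners are known to bind, because the cells were split by IRF8. The E-box and the CLEAR element, which are not of that kind, were searched as well. RefSeq windows of GRCm38.p6 were held for 48 of the 57 members, 60 windows in all. Those not searched are Rab2a, Rab4a, Rab7b, Rab18, Rab26, Rab27b, Rab30, Rab37 and Rab38. The Ets-IRF composite element, searched as GGAA followed by any 2 bases and GAAA, was present in 1 Rab window (Rab11b) and in 2.30% of all 32851 windows. The interferon-stimulated response element, searched as GAAA followed by any 2 bases and GAAA, was present in 1 Rab window (Rab19) and in 2.98% of all windows. A pair of GGAA with any 2 bases between was present in 3 Rab windows (Rab7, Rab20 and Rab32) and in 2.79% of all windows. The E-box CACGTG, which reads the same on both strands, was present in 5 Rab windows (Rab5a, Rab20, Rab21, Rab23 and Rab27a) and in 6.02% of all windows. The CLEAR element of lysosomal genes, searched as TCACGTGA and holding that E-box, was present in 2 of these (Rab5a and Rab21) and in 0.785% of all windows. Rab windows were rich in G and C, with a median of 60.2% against 52.4% over all windows, and held a median of 15 CpG dinucleotides against 6. Shown are the pair of windows with an IRF-type match, which lies on the opposite strand in both and is in capitals. Rab19 is at chr6:39381103-39381352 on the plus strand and Rab11b at chr17:33760487-33760736 on the minus strand, each printed 5′ to 3′ along its gene.
Rab19: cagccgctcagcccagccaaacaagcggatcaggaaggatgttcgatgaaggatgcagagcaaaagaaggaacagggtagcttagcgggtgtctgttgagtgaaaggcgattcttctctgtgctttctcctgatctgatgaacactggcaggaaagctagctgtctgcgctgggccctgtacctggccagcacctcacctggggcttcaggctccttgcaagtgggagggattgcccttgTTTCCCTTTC
Rab11b: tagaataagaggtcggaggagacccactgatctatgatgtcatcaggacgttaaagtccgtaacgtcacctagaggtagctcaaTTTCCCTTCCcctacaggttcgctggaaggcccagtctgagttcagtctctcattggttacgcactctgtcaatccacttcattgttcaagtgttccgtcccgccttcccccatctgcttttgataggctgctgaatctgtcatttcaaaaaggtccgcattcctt
The Rab19 match ends at the base next to the start site, and Rab19 was 2.58-fold lower in positive LMPP. The Rab11b match ends 157 bases before the start, and the direction of Rab11b is not settled. A match in these letters is a description and not a shown binding site.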

How the data were processed

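Total RNA of sorted LMPP was labelled with Cy3 and hybridized to 4 arrays, all on 1 slide and with 1 scan day, which leaves no such batch to fit. Per the file headers, Agilent Feature Extraction 10.7.3.1 produced the deposited processed intensity of each spot, with background subtraction and detrending inside the array and no scaling between arrays. The authors' deposited matrix holds linear intensity values that share the same sorted values in all 4 columns, as quantile normalization gives. Quality flags of other kinds in the deposited files mark spots above background, saturation and outliers.

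Control spots and outlier spots were left out, spots of a probe averaged, and log2 signals centred on each array's 75th percentile. A probe was kept when at least 0.5 of its spots were well above background on both arrays of 1 or both groups (30478 probes), and the brightest kept probe stood for a gene. Accessions were matched without version to RefSeq symbols of GRCm38.p6 (26756 of 55669 probes). Positive minus negative was fitted with limma 3.58.1 (lmFit, eBayes) in R 4.3.3 on all 4 arrays, two-sided, and tested on simulated data. An exact permutation test of these arrays cannot go below p = 0.333, so p-values rest on the model, and the number of arrays limits precision. Members, lists and tests were chosen with earlier results of these data known. Any member may be named. Values of every array are given for Rab7 and for members past the threshold with a difference of at least 0.7 or seen above background in only 1 group. Of the Rab cycle list up to 4 genes per set past the threshold with the largest change are named. Array values beyond these were added for illustration after seeing them. Alternatives were other scalings, background correction, filters, variance models, probe rules, thresholds and single arrays left out. Some results of the Rab cycle and marker lists are not reported here.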

Additional observations from a re-analysis of the deposited data

How the results depend on the processing

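The number of higher Rab members was 16 with the 75th percentile, 7 with quantile normalization and likewise in the authors' matrix, 6 after cyclic loess, 4 with spike-in scaling and 10 at an adjusted p of 0.01, and 9 to 13 with 1 array left out. Lower members numbered 14, against 23 with spike-in scaling and 10 to 15 with 1 array left out. Higher Rab cycle genes numbered 31, against 17 with quantile normalization and in the matrix values, 13 after cyclic loess, 4 with spike-in scaling, 13 at an adjusted p of 0.01 and 11 to 21 with 1 array left out, and the 26 lower ones became 49, 49, 50 and 65 under those 4 scalings. The other alternatives moved these counts by at most 1.5 times. The labels give both fractions the same exp numbers without saying that a number marks shared mice or a shared day. Deviations of same-numbered arrays correlated at 0.097, and 2 pairs cannot settle whether they are paired. The exp number as a replicate block gave 18 higher and 14 lower members and ended 1 call, that of Rab18, while Rab4b, Rab22a and Rab28 gained one. Over settings and single members other than Rab7b, 572 results kept direction and call, and 69 kept direction but lost the call. A further 16 gained a call, and 88 turned sign, whether called or not. The median of all genes was 0.16, and -0.14 with spike-in scaling, 0.04 with quantile normalization and 0.01 after cyclic loess.

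The turned differences were the following. With spike-in scaling they were Rab10 -0.18, Rab11a -0.045, Rab11b -0.11, Rab12 -0.24, Rab14 -0.021, Rab18 -0.11, Rab22a -0.013, Rab28 -0.080, Rab29 -0.26, Rab2a -0.17, Rab31 -0.13, Rab32 -0.19, Rab33b -0.27, Rab34 -0.20, Rab3a -0.18, Rab40c -0.20, Rab4b -0.092, Rab5a -0.15, Rab5b -0.29, Rab6a -0.29 and Rab8b -0.26. With quantile normalization they were Rab10 -0.19, Rab11b -0.13, Rab12 -0.078, Rab14 -0.10, Rab18 -0.030, Rab23 0.037, Rab29 -0.20, Rab31 -0.0068, Rab32 -0.13, Rab33a 0.038, Rab33b -0.070, Rab35 -0.021, Rab40c -0.14, Rab5a -0.057, Rab5b -0.21, Rab6a -0.25 and Rab8b -0.22. In the deposited matrix values they were Rab10 -0.19, Rab11b -0.14, Rab12 -0.079, Rab14 -0.10, Rab18 -0.032, Rab23 0.036, Rab29 -0.21, Rab31 -0.0076, Rab32 -0.13, Rab33a 0.037, Rab33b -0.072, Rab35 -0.024, Rab40c -0.15, Rab5a -0.059, Rab5b -0.21, Rab6a -0.26 and Rab8b -0.23. After cyclic loess they were Rab10 -0.22, Rab11b -0.17, Rab12 -0.11, Rab14 -0.10, Rab18 -0.062, Rab29 -0.23, Rab2a -0.038, Rab31 -0.028, Rab32 -0.16, Rab33b -0.079, Rab35 -0.039, Rab40c -0.17, Rab5a -0.093, Rab5b -0.24, Rab6a -0.28 and Rab8b -0.26. Under normexp they were Rab13 0.16, Rab23 0.066, Rab26 0.20, Rab29 -0.0098, Rab33a 0.0098, Rab33b -0.0072, Rab5b -0.049, Rab6a -0.035 and Rab8b -0.012. With the mean of a gene's probes Rab33b was -0.31. With 1 array left out the range was -0.023 to 0.054 for Rab5b, -0.015 to 0.048 for Rab6a, -0.0078 to 0.14 for Rab12, -0.68 to 0.23 for Rab26 and -0.0048 to 0.10 for Rab29. For Rab5b it turned without the first negative or second positive array, for Rab6a without the second of either group, and for Rab12, Rab26 and Rab29 without the second positive array.

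Rab7b kept its direction and call under all 14 alternatives that tested it. The filter for signal on all 4 arrays left Rab7b, Rab27b, Rab40b, Rab20, Rab13 and Rab26 untested.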
